A study of Mus musculus with 8 samples.

Results

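The mitochondrial genome encodes 37 genes, and all 37 were present among the 55401 genes of the count table, selected as every row placed on chromosome M. They comprised 13 messenger RNAs (mRNAs), 2 ribosomal RNAs (rRNAs) and 22 transfer RNAs (tRNAs). By the strand column, 28 were heavy-strand products (plus strand) and 9 were light-strand products (minus strand). The light-strand products were mt-Nd6 and 8 tRNA genes. RNA was sequenced from mouse lung of stage E13.5 (days of embryonic development). The 4 mutant libraries had the genotype written as Tbx4tetOcre_MyrfE6_mutant, and the 4 control libraries were labelled cre control. Myrf encodes a membrane-bound transcription factor, and the series title names the specification of mesothelium, the cell layer that covers the lung, as the subject. Tbx4, whose name the Cre transgene bears, is a T-box gene of lung mesenchyme. The labels explain neither the transgene nor the allele further, and give neither the sex nor the number of embryos in a library, so p-values measure the spread between these libraries.

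The mitochondrial genome is a small circle that is copied into RNA from both strands. Each strand yields long precursors, from which the tRNAs that lie between the other genes are cut out, releasing mRNAs and rRNAs. The heavy-strand precursor holds both rRNAs and nearly all mRNAs. The light-strand precursor holds a single mRNA, mt-Nd6, which encodes a membrane subunit of respiratory complex I. Most mitochondrial mRNAs carry a poly(A) tail, while in human cells the mt-Nd6 transcript is known to lack a stable one. The libraries were made with a stranded kit that selects messenger RNA, so levels of RNA with no or short tails are not comparable with those of tailed mRNAs.

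Library totals ranged from 17819285 to 48679134 counts in mutants and from 17799899 to 19032389 in controls, and mutant replicate 2 was the deepest. Across all genes tested, 1.49% passed the threshold (236 of 15788 genes, adjusted p below 0.05 in the edgeR quasi-likelihood test), 0.931% lower and 0.564% higher in the mutant lung. All 5 epithelial and all 5 mesenchymal lung markers were detected in both groups, summing to 684 to 717 and 735 to 790 CPM (counts per 1000000, with TMM-scaled library totals) in mutants and to 657 to 710 and 781 to 844 CPM in controls. The 8 heart muscle genes, markers of a neighbouring tissue rich in mitochondria, summed to 93.8 to 151 CPM in mutants and 65.3 to 107 CPM in controls, and 0 of the 7 tested passed (Nppa, a defining atrial gene, had 24, 0, 3 and 1 counts in mutant replicates 1 to 4 and 0, 1, 0 and 0 in control replicates 1 to 4). The 7 red blood cell genes summed to 1880 to 2140 CPM in mutants and 1900 to 2110 CPM in controls. In these lists Hbb-bh1, an embryonic globin gene, was higher (log2 0.72, adjusted p = 0.00443, edgeR) and the mesenchymal gene Wnt2 lower (log2 -0.33, adjusted p = 0.00852, edgeR) in mutants, each with no overlap between the groups. The 4 mesothelial markers summed to 75.9 to 88.9 CPM in mutants and 121 to 129 CPM in controls.

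The sequence of mt-Nd6 is shown because it was the mitochondrial transcript that passed the threshold in edgeR on all libraries. A near copy of it also lies in the nuclear genome. mt-Nd6 (ENSMUSG00000064368.1) occupies chrM:13552-14070 on the minus strand of GRCm38 as 1 uninterrupted exon, and its last 14 bases overlap the end of mt-Nd5 on the other strand. The nuclear copy, the pseudogene Gm11408, lies at chr4:80003396-80003914 on the minus strand. They differ at 33 of 519 positions. The first 300 bases of each, from the GENCODE vM21 transcripts, are given 5′ to 3′ (chrM:13771-14070 and chr4:80003615-80003914), with capitals at the 16 positions that differ there.
mt-Nd6: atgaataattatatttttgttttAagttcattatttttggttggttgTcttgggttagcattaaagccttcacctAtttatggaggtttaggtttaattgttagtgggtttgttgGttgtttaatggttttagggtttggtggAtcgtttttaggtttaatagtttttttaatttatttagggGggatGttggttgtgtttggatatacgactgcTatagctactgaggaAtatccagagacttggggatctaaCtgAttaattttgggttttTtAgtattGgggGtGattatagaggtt
Gm11408: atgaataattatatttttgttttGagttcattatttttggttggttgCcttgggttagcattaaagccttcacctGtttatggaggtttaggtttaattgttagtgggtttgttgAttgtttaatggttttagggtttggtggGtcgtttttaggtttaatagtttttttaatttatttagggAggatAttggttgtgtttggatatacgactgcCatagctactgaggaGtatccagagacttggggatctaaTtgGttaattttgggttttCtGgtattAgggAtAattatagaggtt
No stretch of 50 bases of mt-Nd6 occurred unchanged in another annotated transcript, and Gm11408 had 0 counts in all 8 libraries.

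The base composition of the members separated by strand. Pooled light-strand products were 25.4% G and 9.9% C, and pooled heavy-strand products were 12.5% G and 24.3% C. Among mRNAs, mt-Nd6 was 28.1% G, while the 12 heavy-strand mRNAs ranged from 5.9% to 16.1% G. The tRNA genes overlapped, at 17.9% to 29.9% G on the light strand and 7.1% to 21.3% G on the heavy strand. The total of G and C was close between strands, at 35.3% on the light and 36.8% on the heavy. The annotated length was no multiple of 3 in 3 heavy-strand mRNAs (mt-Co3, mt-Nd4 and mt-Cytb), transcripts whose stop codon is completed by the poly(A) tail; that of mt-Nd6 was a multiple of 3.

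mt-Nd6 fell in the mutant lung. Its level was 4.61, 4.41, 4.39 and 6.19 CPM in mutant replicates 1 to 4, against 12.04, 8.57, 13.2 and 7.498 CPM in control replicates 1 to 4. Every mutant library lay below every control library, which also held for 4.06% of all genes tested (the reverse held for 3.31%), and control replicates 1 and 3 lay well above the other controls. The means were 4.90 ± 0.866 CPM in mutants and 10.3 ± 2.73 CPM in controls (SD, n = 4 each), or 53.2% lower. On the log2 scale the change was -1.10 with an SE of 0.184 and a 95% interval of -1.5 to -0.69 (edgeR quasi-likelihood test, adjusted p = 0.0165). These values rest on 532 counts in the mutants and 747 in the controls. By its p-value mt-Nd6 ranked 80 of the 15788 genes, and 7 genes that passed had a larger fall. In bulk RNA, fewer cells of a type and less RNA per cell cannot be told apart.

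The call of mt-Nd6 depended on the libraries and the model, while its direction did not. The log2 fold change stayed between -1.22 and -0.93 in 16 alternatives, and 11 of them kept the call. It was lost without mutant replicate 1 (adjusted p = 0.0765), replicate 2 (adjusted p = 0.0792) or replicate 3 (adjusted p = 0.064), with the replicate number as a block (adjusted p = 0.0574) and with the sum of 4 Y-linked genes as a term in the model (adjusted p = 0.207), all by edgeR; over the alternatives the adjusted p ranged from 1.62e-17 to 0.207. Those Y-linked genes summed to 133, 143, 67.7 and 64.4 CPM in mutant replicates 1 to 4 and to 76.6, 0, 0.0565 and 73.1 CPM in control replicates 1 to 4. Y-linked RNA was thus present in every mutant library but near 0 in control replicates 2 and 3, so the groups were not balanced for it. It cannot be fully told apart from genotype in these libraries. Those controls stood below and above the control mean of mt-Nd6, at 8.57 and 13.2 CPM. The part of sex in the fall was not tested beyond the model with this term.

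**Figure D1:**
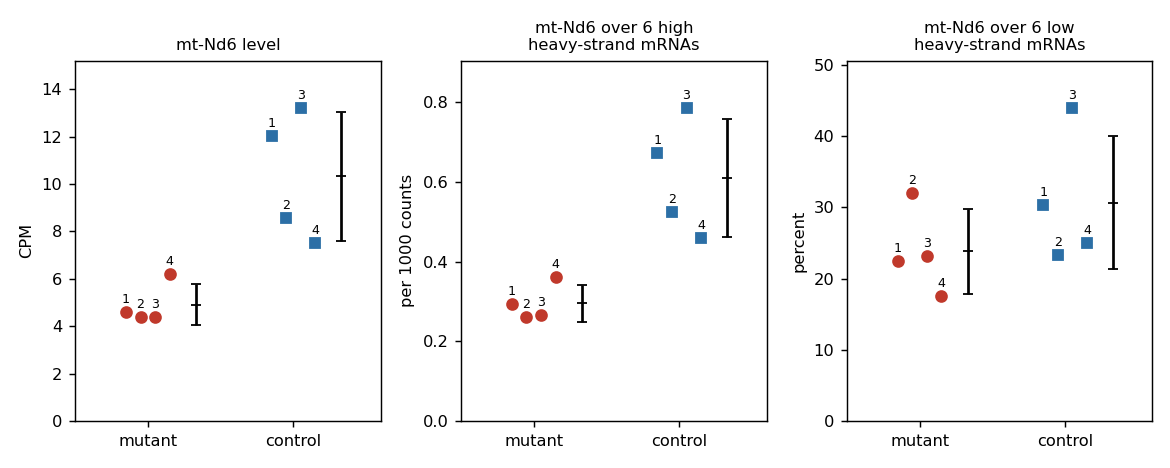
mt-Nd6 in each library as CPM (left), per 1000 counts of the 6 high heavy-strand mRNAs (middle) and as a percent of the counts of the 6 low heavy-strand mRNAs (right); numbers are replicates and bars are the mean ± SD of 4 libraries. Mutant libraries lie below all controls in the left and middle panels, at 4.39 to 6.19 CPM against 7.498 to 13.2 CPM, and overlap them on the right, at 17.6% to 32.0% against 23.3% to 44.0%.

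The total mitochondrial output overlapped between the groups. Mitochondrial genes held 1.601%, 1.72%, 1.68% and 1.73% of the counts in mutant replicates 1 to 4, against 1.81%, 1.65%, 1.70% and 1.65% in control replicates 1 to 4. The log2 difference was -0.016 (two-sided exact permutation test, p = 0.714, adjusted p = 0.771 over 9 ratios). With 4 libraries against 4 the smallest p this test can give is 0.0286.

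Light-strand products were a minute part of mitochondrial counts in every library. They made up 0.0308%, 0.0258%, 0.0262% and 0.0356% of them in mutant replicates 1 to 4, and 0.0678%, 0.0515%, 0.0800% and 0.0466% in control replicates 1 to 4. The groups did not overlap, as they did not in 7.37% of all genes tested. The log2 ratio of light-strand to heavy-strand counts averaged -11.7 ± 0.22 in mutants and -10.7 ± 0.358 in controls (SD, n = 4 each). The difference was -1.03 (exact permutation p = 0.0286, adjusted p = 0.129 over the 9 ratios), so it did not pass after adjustment. That p is the smallest this test can give. After adjustment it could pass only if most of the 9 ratios reached it, so not passing does not speak to the difference. Since mt-Nd6 supplied 94.4% to 100% of the light-strand counts in mutants and 96.7% to 100% in controls, this ratio repeats the values of mt-Nd6. Set against the 12 heavy-strand mRNAs alone, mt-Nd6 differed by -1.03 on the log2 scale (exact permutation p = 0.0286, adjusted p = 0.129).

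The 12 heavy-strand mRNAs fell into a high and a low set by their level per length. mt-Co1, the catalytic subunit of cytochrome c oxidase (complex IV), was highest, at 3940 ± 121 CPM per kb in mutants and 3730 ± 74.9 CPM per kb in controls (SD, n = 4 each). mt-Cytb, the cytochrome b of complex III, followed at 3319 ± 38.9 CPM per kb in mutants and 3303 ± 149 in controls. The complex I subunit genes mt-Nd1 and mt-Nd2 came next, at 2365 ± 215 and 1367 ± 105.9 CPM per kb in mutants and 2661 ± 136 and 1578 ± 113 CPM per kb in controls. mt-Nd5 and mt-Nd4, also of complex I, closed the high set at 969 ± 121 and 901 ± 29.1 CPM per kb in mutants and 1029 ± 92.5 and 897.7 ± 62.0 CPM per kb in controls. In both groups each of the first 4 stood above the next by more than the sum of their SDs, while mt-Nd5 and mt-Nd4 lay closer than that.

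The low set held the remaining 6 heavy-strand mRNAs at 1.66 to 10.96 CPM per kb in mutants and 2.51 to 16.05 CPM per kb in controls. They were mt-Co2 and mt-Co3 of complex IV, mt-Atp6 and mt-Atp8 of ATP synthase (complex V), and mt-Nd3 and mt-Nd4l of complex I. mt-Nd6 lay between mt-Co2 and mt-Co3 in mutants, at 9.44 ± 1.67 CPM per kb, and above all of these in controls, at 19.9 ± 5.26 CPM per kb. Both rRNAs lay between the sets, mt-Rnr1 at 100.4 ± 16.5 CPM per kb in mutants and 110 ± 1.89 in controls, and mt-Rnr2 at 64.0 ± 12.2 CPM per kb in mutants and 73.7 ± 8.70 in controls.

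**Figure D2:**
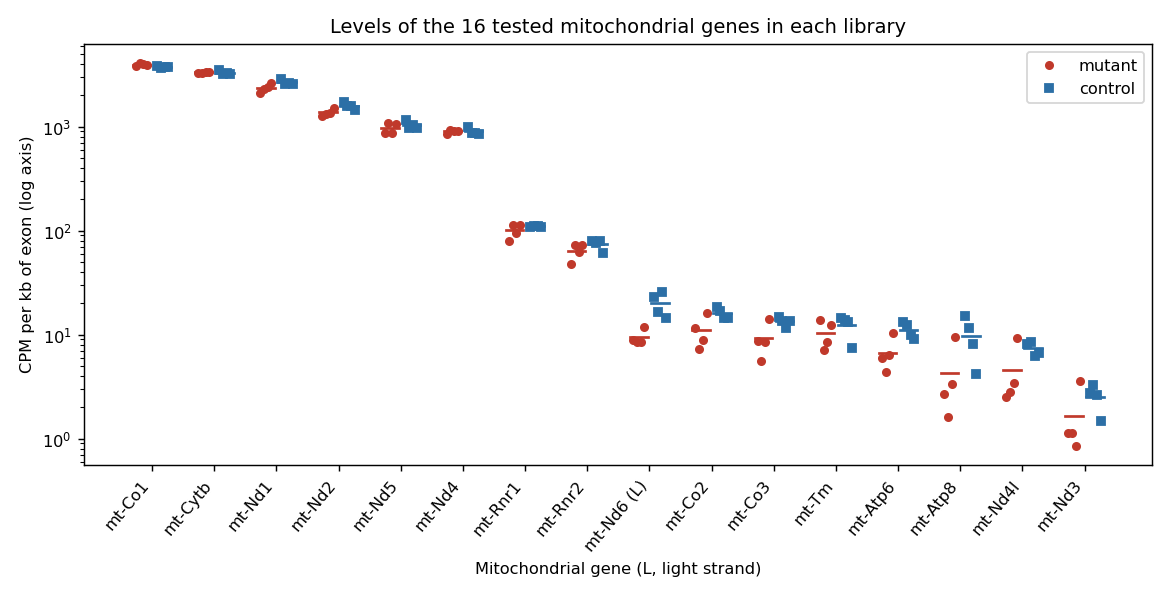
Level of each of the 16 tested mitochondrial genes in CPM per kb of exon on a log axis, ordered by the control mean; points are libraries (mutant left, control right of each tick) and lines are means of 4. The 6 high mRNAs lie at 901 or more on average in mutants, the rRNAs between 64.0 and 110, and mt-Nd6 with the other low genes at 19.9 or less.

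All genes of the low set but mt-Atp8 had near-identical copies among annotated nuclear pseudogenes. By the counting options, reads that map to several places were not counted, so the level of such genes understates their RNA. Of the windows of 100 bases in mt-Co2, mt-Atp6, mt-Co3, mt-Nd4l and mt-Nd3, 99.5%, 99.5%, 99.9%, 98.5% and 97.6% occurred unchanged in another annotated transcript. The copies of mt-Co2 (Gm28661), mt-Atp6 (Gm10925), mt-Co3 (Gm28437) and mt-Nd4l (Gm10222) were identical over 681, 678, 783 and 294 aligned bases. All lie in 1 block of chromosome 1, from 24611535 to 24616197 on the minus strand. mt-Atp8 shared 0 such windows, but the bases between Gm10925 and Gm28661, which lie side by side in that block, belong to no gene of the table and were not searched. Of its 204 bases, 43 also overlap mt-Atp6 on the same strand. A read pair that touches both genes equally is not counted for either.

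The copy of mt-Nd3 shows how little separates a mitochondrial gene from its nuclear counterpart. Over 345 aligned bases mt-Nd3 differed from Gm28438 at 1 position, T3C, counted from 1 at the 5′ end of mt-Nd3. The first 33 bases of each are given 5′ to 3′ with that base in capitals, mt-Nd3 at chrM:9459-9491 on the plus strand and Gm28438 at chr1:24613087-24613119 on the minus strand of GRCm38.
mt-Nd3: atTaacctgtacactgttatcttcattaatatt
Gm28438: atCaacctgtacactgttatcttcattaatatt
Among the other mRNAs, mt-Nd4 shared 60.8% and mt-Co1 30.8% of its windows of 100 bases, mt-Nd2 3.2%, and mt-Nd1, mt-Nd5, mt-Cytb and mt-Nd6 0.0%. The low level of mt-Nd6 stood beside no shared window. The same was true of mt-Rnr1 and mt-Rnr2, at 0.0% each.

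**Figure D3:**
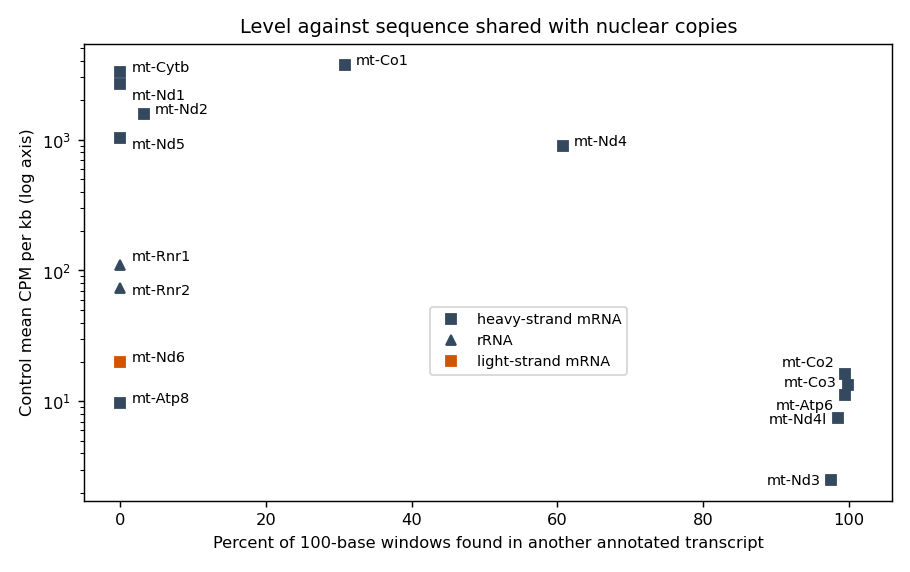
Control mean in CPM per kb (log axis) against the percent of windows of 100 bases that occur unchanged in another annotated transcript, for the 13 mRNAs and 2 rRNAs. The 5 genes at 97.6% or more lie at 16.05 CPM per kb or less, while mt-Nd6 and mt-Atp8 are low at 0.0%.

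Of the 37 members, 16 passed the expression filter, and 1 of these 16, mt-Nd6, passed the threshold, where 1.49% of all genes did. Leaving out single libraries gave 0 (without mutant replicate 1, 2 or 3) to 8 (without mutant replicate 4). The other 21 were tRNA genes with too few counts. Of the 16, 13 had negative log2 fold changes, with a median of -0.25 beside a median of 0 over all genes tested, and 6 had an unadjusted p below 0.05, where 13.9% of all genes did. mt-Nd3 reached the filter's level of 0.542 CPM in 1 mutant and 3 control libraries and mt-Atp8 in 3 mutant and 4 control libraries, so both entered the test mainly through the controls.

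Within the high set, mt-Nd2 and mt-Nd1 were lower and mt-Co1 was higher in most mutant libraries without passing the threshold. mt-Nd2 measured 1306, 1385, 1418 and 1569 CPM in mutant replicates 1 to 4, against 1777, 1642, 1639 and 1491 CPM in control replicates 1 to 4. Mutant replicate 4 lay within the control range, and the other 3 lay below it. Its log2 fold change was -0.21 (SE 0.0654, adjusted p = 0.193, edgeR). mt-Nd1 measured 2025, 2215, 2288 and 2524 CPM in mutants and 2741, 2480, 2490 and 2476 CPM in controls, with the same placing of mutant replicate 4 and a log2 difference of -0.17 (edgeR, SE 0.0659, adjusted p = 0.299). Without mutant replicate 4 both passed in edgeR, mt-Nd2 at an adjusted p of 0.0221 and mt-Nd1 at 0.0203, and mt-Nd2 also passed with DESeq2 on all libraries.

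mt-Co1 measured 5856, 6297, 6161 and 6036 CPM in mutants and 5858, 5598, 5823 and 5771 CPM in controls. Mutant replicates 2 to 4 lay above all controls and mutant replicate 1 just under the highest control (log2 fold change 0.08, SE 0.0268, adjusted p = 0.161, edgeR). mt-Cytb, mt-Nd4 and mt-Nd5 had log2 fold changes of 0.007 (SE 0.03), 0.005 (SE 0.0419) and -0.09 (SE 0.108). Their 95% intervals were -0.06 to 0.07, -0.08 to 0.09 and -0.35 to 0.17, so a change as large as that of mt-Nd6 lay outside all of them.

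The ratio of mt-Co1 to mt-Nd1 counts was 2.89, 2.84, 2.69 and 2.39 in mutants and 2.14, 2.26, 2.34 and 2.33 in controls. These groups did not overlap; this pair was chosen after its values were seen and was not tested. Summed by complex, complex IV over heavy-strand complex I mRNA was 0.20 higher in mutants on the log2 scale (mean -0.13 ± 0.094 in mutants and -0.33 ± 0.08 in controls, SD, n = 4 each), and the groups overlapped (exact permutation p = 0.0571, adjusted p = 0.171). Without mt-Co1 this difference turned to -0.48. Genes far from the heavy-strand promoter (mt-Nd3, mt-Nd4l, mt-Nd4, mt-Nd5 and mt-Cytb) over genes near it (mt-Nd1, mt-Nd2 and mt-Co1) differed by 0.009 on the log2 scale (exact permutation p = 0.771, adjusted p = 0.771). Without mt-Co1 it was 0.169 (exact permutation p = 0.0286, adjusted p = 0.0857).

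All 6 mRNAs of the low set had negative log2 fold changes, and 0 passed in edgeR, where 1.49% of all genes tested did. Among them mt-Nd3 and mt-Atp8 entered the test mainly through the controls, which favours a negative sign. Of the set 2 had an unadjusted p below 0.05 (mt-Atp6 and mt-Nd4l), where 13.9% of all genes did, and mt-Atp6 passed with DESeq2 and with limma-voom. mt-Atp6, the proton channel subunit of ATP synthase, measured 4.02, 2.95, 4.29 and 6.98 CPM in mutants and 9.03, 8.46, 6.72 and 6.14 CPM in controls (log2 fold change -0.79, SE 0.252, adjusted p = 0.193, edgeR). Mutant replicate 4 lay within the control range and the other 3 below it. mt-Co2, which carries the copper site that receives electrons from cytochrome c, measured 7.93, 4.92, 6.003 and 11.1 CPM in mutants and 12.7, 11.6, 9.77 and 9.81 CPM in controls (log2 fold change -0.60, SE 0.255, adjusted p = 0.361, edgeR). The same placing of mutant replicate 4 held for mt-Co3 and mt-Atp8. In mt-Nd3 and mt-Nd4l mutant replicate 4 lay above all controls, at 1.24 and 2.76 CPM, and the other 3 mutants below them. Without mutant replicate 4 all but mt-Nd3 passed in edgeR, with adjusted p from 0.00251 (mt-Atp6) to 0.0232 (mt-Atp8).

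**Figure D4:**
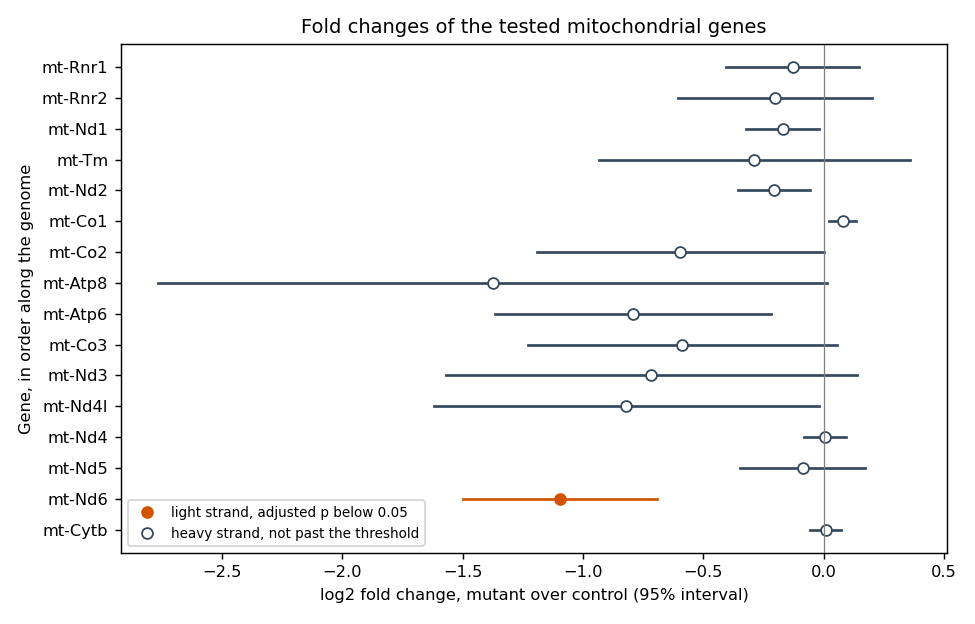
Log2 fold change, mutant over control, of the 16 tested mitochondrial genes in order along the genome, with 95% intervals from edgeR; the filled point is past the adjusted threshold. The light-strand mt-Nd6 lies at -1.10, the 6 low heavy-strand mRNAs between -1.37 and -0.59, and mt-Cytb and mt-Nd4 at 0.007 and 0.005.

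Several other rows were low in most mutant libraries, and their part in the fall of mt-Nd6 was not tested. The 6 low mRNAs together measured 20.5, 13.8, 19.0 and 35.1 CPM in mutant replicates 1 to 4 and 39.7, 36.7, 30.01 and 29.9 CPM in control replicates 1 to 4. The 7 pseudogenes of the chromosome 1 block summed to 37.3, 25.1, 34.1 and 56.2 CPM in mutants and 58.4, 50.4, 43.6 and 44.6 CPM in controls. The 3 pseudogenes on chromosome 2 with copies of mt-Nd2, mt-Co1 and mt-Co2 (Gm13339, Gm13340 and Gm13341) summed to 13.03, 7.63, 12.6 and 26.1 CPM in mutants and 30.3, 28.2, 23.2 and 22.4 CPM in controls. In all 3 sums mutant replicates 1 to 3 lay below the controls and mutant replicate 4 among them. Like these sums, mt-Nd6 was highest among the mutants in replicate 4, at 6.19 CPM against 4.61, 4.41 and 4.39 CPM in replicates 1 to 3. mt-Nd6 differed from the sums there only in that it stayed below all controls. It also differed in control replicate 3, where it was highest of all libraries while the sums lay at or near the lowest control. Staying below all controls in mutant replicate 4 was not particular to mt-Nd6. The same held for Gm4076, a copy of part of mt-Nd5 on chromosome 13 outside these sums. Gm4076 measured 0.631, 0.410, 0.488 and 0.844 CPM in mutants and 1.109, 1.127, 0.960 and 1.184 CPM in controls. Of the 4 mesothelial markers 3 passed in edgeR (Wt1, Upk3b and Lrrn4, all lower), where 0.931% of all genes tested passed as lower. The remaining marker, Msln, went the other way without passing (0.828 CPM in mutants and 0.723 CPM in controls, log2 fold change 0.19, adjusted p = 0.847, edgeR). The summed levels of the list, 75.9 to 88.9 CPM in mutants and 121 to 129 CPM in controls, did not overlap. Most of that sum was Upk3b, at a mean of 57.0 CPM in mutants and 88.4 CPM in controls. The part of these markers in the fall of mt-Nd6, and that of Hbb-bh1 and Wnt2, was not tested.

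The deepest library, mutant replicate 2, had 837846 heavy-strand counts, against 293592 to 402603 in the other 7. Its 672 counts in the 6 low mRNAs stood close to the 389 to 625 of the other mutants, whereas its 215 mt-Nd6 counts stood well above their 90 to 117. As a share of the 6 low mRNAs, a set chosen after the values were seen, mt-Nd6 stood at 22.5%, 32.0%, 23.1% and 17.6% in mutants and 30.3%, 23.3%, 44.0% and 25.05% in controls. On that scale the groups overlapped. Per 1000 counts of the 6 high mRNAs it stood at 0.294, 0.260, 0.265 and 0.362 in mutants and 0.673, 0.524, 0.786 and 0.459 in controls, with no overlap.

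**Figure D5:**
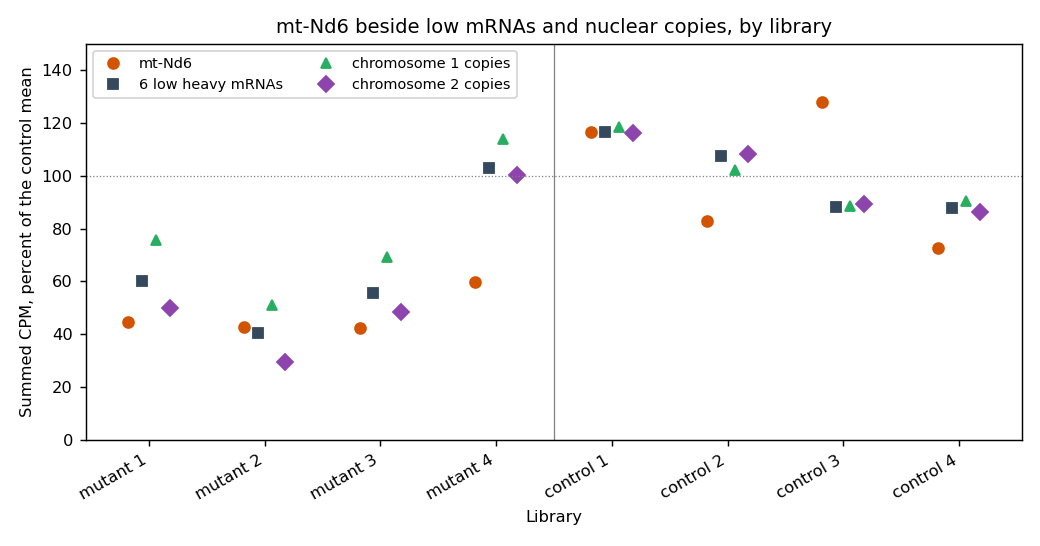
Summed CPM of mt-Nd6, the 6 low heavy-strand mRNAs, the 7 chromosome 1 copies and the 3 chromosome 2 copies in each library, as a percent of each row's control mean (dotted line at 100). Mutant replicates 1 to 3 are below all controls in each of the 4 rows, and in mutant replicate 4 mt-Nd6 alone is below all controls.

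Of the 7 pseudogenes on chromosome 1, each with at least 1 CPM on average, 0 passed in edgeR, where 1.49% of all genes tested did. Their log2 fold changes ran from -0.66 (Gm29216, a copy of part of mt-Co1, SE 0.198, adjusted p = 0.152, edgeR) to -0.25 (Gm28437, SE 0.211, adjusted p = 0.679, edgeR). Copies elsewhere had larger falls without passing. On chromosome 2 Gm13339, Gm13341 and Gm13340 stood at -1.285, -0.931 and -0.832 (adjusted p = 0.183, 0.356 and 0.407, edgeR). The mt-Nd5 copies Gm11407 and Gm4076 stood at -1.01 and -0.96 (adjusted p = 0.218 and 0.0926, edgeR). Gm13339, Gm11407 and Gm4076 rest on few counts. Copies and their mitochondrial originals share reads that could not be placed, so their counts are uncertain together.

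The 2 rRNAs, scaffolds of the mitochondrial ribosome, did not pass. mt-Rnr1 (12S, small subunit) measured 76.0, 108.9, 90.6 and 108.1 CPM in mutants and 104, 106.6, 106.5 and 103 CPM in controls, so mutant replicates 1 and 3 lay below the controls and the other 2 above them (log2 fold change -0.13, SE 0.116, adjusted p = 0.708, edgeR). mt-Rnr2 (16S, large subunit) measured 74.8, 115.7, 99.0 and 115.4 CPM in mutants and 124.7, 120.1, 125.2 and 96.2 CPM in controls (log2 fold change -0.20, SE 0.167, adjusted p = 0.684, edgeR), and the groups overlapped. The log2 ratio of rRNA to mRNA averaged -6.41 ± 0.216 in mutants and -6.25 ± 0.088 in controls (SD, n = 4 each; exact permutation p = 0.229, adjusted p = 0.411). That of mt-Rnr1 to mt-Rnr2 averaged -0.07 ± 0.065 in mutants and -0.14 ± 0.165 in controls (exact permutation p = 0.457, adjusted p = 0.588).

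The 22 tRNA genes gave almost no counts, 42, 54, 27 and 34 in mutant replicates 1 to 4 and 40, 51, 47 and 24 in control replicates 1 to 4. In 10 of them the count was 0 in all 8 libraries, which allows up to 3 counts, or 0.0616 to 0.168 CPM in the mutant and 0.158 to 0.169 CPM in the control libraries. These limits cover counting error only. The 3 with counts in all 8 libraries were mt-Tm (methionine), mt-Ti (isoleucine) and mt-Tl1 (leucine), all heavy-strand genes that abut mt-Nd1 or mt-Nd2. They are shown with the light-strand tRNA genes nearest to mt-Nd6 on its 5′ side, mt-Te (glutamate) and mt-Tp (proline), as GENCODE vM21 gives them, 5′ to 3′, with the anticodon in capitals.
mt-Tm: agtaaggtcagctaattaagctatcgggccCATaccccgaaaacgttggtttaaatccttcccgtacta
mt-Ti: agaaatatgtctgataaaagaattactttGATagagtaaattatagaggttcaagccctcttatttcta
mt-Tl1: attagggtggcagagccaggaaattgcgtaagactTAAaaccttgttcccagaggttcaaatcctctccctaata
mt-Te: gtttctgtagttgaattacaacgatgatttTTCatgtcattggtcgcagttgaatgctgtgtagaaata
mt-Tp: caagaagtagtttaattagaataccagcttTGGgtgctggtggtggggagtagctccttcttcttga
They lie on chromosome M of GRCm38, mt-Tm from 3845 to 3913, mt-Ti from 3706 to 3774 and mt-Tl1 from 2676 to 2750 on the plus strand, and mt-Te from 14071 to 14139 and mt-Tp from 15356 to 15422 on the minus strand. Each is at most 75 bases long, and a read pair that touches a tRNA and its neighbour on the same strand equally is not counted for either.

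mt-Tm was the 1 tRNA gene tested, at 0.946, 0.492, 0.586 and 0.844 CPM in mutants and 1.003, 0.958, 0.904 and 0.507 CPM in controls (log2 fold change -0.29, SE 0.307, adjusted p = 0.748, edgeR), and the groups overlapped. mt-Ti had 1, 5, 3 and 7 counts in mutants and 6, 16, 5 and 9 in controls, and mt-Tl1 6, 14, 6 and 6 in mutants and 6, 10, 14 and 2 in controls. With no low-count filter mt-Ti passed as lower in edgeR, on these few counts. Heavy-strand tRNA genes together had 27 to 53 counts in mutants and 20 to 51 in controls. Light-strand tRNA genes together had 7, 1, 0 and 0 counts in mutants and 5, 0, 8 and 4 in controls, too few to compare the strands. The log2 ratio of tRNA to mRNA averaged -13.47 ± 0.361 in mutants and -12.9 ± 0.485 in controls (SD, n = 4 each; exact permutation p = 0.114, adjusted p = 0.257).

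The nuclear genes that make and process mitochondrial RNA stayed under the threshold. Of 25 tested genes of mitochondrial transcription and replication 0 passed in edgeR, where 1.49% of all genes tested did. In that list 2 had an unadjusted p below 0.05, where 13.9% of all genes did, and the median log2 fold change was 0.03. Of 31 tested genes of mitochondrial RNA processing 0 passed, with 0 at an unadjusted p below 0.05 and a median of 0.01. At a share of 1.49%, lists this short can hold 0 calls without differing from other genes. Neither DESeq2 nor limma-voom called any member of these lists. Tfb2m, a factor that opens mitochondrial promoters, measured 19.7 ± 0.665 CPM in mutants and 17.6 ± 1.45 CPM in controls (SD, n = 4 each; adjusted p = 0.296, edgeR), and Gabpa, a nuclear regulator of mitochondrial genes, 70.8 ± 2.16 CPM in mutants and 76.7 ± 2.90 CPM in controls (adjusted p = 0.187, edgeR). The most abundant members were Pprc1, a coactivator of the PGC-1 family (186.8 ± 5.82 CPM in mutants and 178 ± 8.50 CPM in controls), and Polg, the polymerase of mitochondrial DNA (100.2 ± 2.48 CPM in mutants and 99.8 ± 5.995 CPM in controls). In the processing list they were Grsf1, an RNA-binding protein of mitochondrial RNA granules (104 ± 2.04 CPM in mutants and 100.1 ± 3.12 CPM in controls), and Fastk (100.3 ± 3.35 CPM in mutants and 99.2 ± 1.96 CPM in controls). Of these, Fastk has been linked in mouse cells to mt-Nd6 RNA.

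The nuclear partners of the mitochondrial subunits also stayed under the threshold. Of 40 tested nuclear genes of the respiratory chain and ATP synthase 0 passed in edgeR, DESeq2 or limma-voom, where 1.49% of all genes passed in edgeR. In edgeR 4 had an unadjusted p below 0.05, where 13.9% of all genes did, and the median log2 fold change was 0.01. Atp5b and Atp5a1, the catalytic core of ATP synthase, measured 1338 ± 29.0 and 1271 ± 35.4 CPM in mutants and 1282 ± 45.8 and 1259 ± 27.6 CPM in controls (SD, n = 4 each). The smallest p belonged to Cox6b1 of complex IV, at 131 ± 1.91 CPM in mutants and 139.7 ± 3.90 CPM in controls (log2 fold change -0.09, SE 0.0338, adjusted p = 0.228, edgeR).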

How the data were processed

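RNA of E13.5 mouse lung was sequenced in 4 mutant and 4 control libraries. The authors deposited raw counts of read pairs per gene, which featureCounts 1.6.4 made from paired reads against GENCODE vM25 exons under strand option 2, per the file headers. Per the file headers, no option kept reads that map to several places or overlap several genes. STAR, featureCounts, DESeq2 and GRCm38 (mm10) stand in the submitters' processing notes; for STAR the sources used here give no version. The deposited exon length in bases gave levels per kb.

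All 8 libraries entered 1 fit in edgeR 4.0.16 (R 4.3.3): expression filter (minimum count 10, 15788 genes kept), TMM scaling, robust dispersions and the two-sided quasi-likelihood F test of mutant against control with no covariate, with Benjamini-Hochberg adjustment over all genes tested at 0.05. The pipeline was tested on simulated counts. The 9 ratios of summed counts were compared by exact permutation over libraries (SciPy 1.17.1) and adjusted over the 9; light over heavy tRNA used counts plus 0.5. Alternatives used DESeq2 1.42.0, limma-voom (limma 3.58.1), other scalings, filters and covariates, and leaving out each library. Strand, position and product of all 37 genes were equal in GENCODE vM21, whose transcripts gave the sequences. Copies were sought with BLAST 2.17.0 (word size 28) at 90% identity or more over at least 100 bases. At the smallest library total, 3 counts are 0.169 CPM.

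All 37 members were named or counted, with tRNA genes by name where tested or above 0 in all 8 libraries; of each nuclear list, at most the 5 smallest adjusted p and the 2 highest levels. The listed gene Prorp was not matched by symbol. The row matched by symbol to Atp5o had 0 counts in all 8 libraries and did not pass the filter. It has 530 exon bases within chr16:91684398-91926982, and whether it stands for the ATP synthase subunit was not checked. Members and lists were chosen with earlier results of these data known.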

Additional observations from a re-analysis of the deposited data

Results flagged for a closer look

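In 50 groups of 4 values examined, 7 held a library far from the other 3, where chance gives about 1 in 20 groups. Mutant replicate 4 stood above the other mutants for mt-Nd6 at 6.19 CPM, for mt-Nd3 at 1.24 CPM and for mt-Nd4l at 2.76 CPM. Mutant replicate 1 stood below the other mutants for mt-Nd4 at 1182 CPM. Control replicate 1 stood above the other controls for mt-Nd4 at 1364 CPM and for mt-Nd1 at 2741 CPM. Control replicate 2 stood below the other controls in the log2 ratio of light-strand to heavy-strand tRNA counts at -6.69, a library with 0 light-strand tRNA counts.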

How the results depend on the processing

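Of 256 alternative fits of the 16 tested genes 229 kept direction and side of the threshold, as did 92 of 97 alternatives of the ratios. No ratio passed on all libraries, and most of these 97 alternatives left out a library or paired the libraries, which could not pass. For those, only the direction could change. The count of changed mitochondrial genes, 1 in edgeR, was 3 with DESeq2 (mt-Nd6, mt-Nd2 and mt-Atp6) and 2 with limma-voom (mt-Nd6 and mt-Atp6). With no low-count filter it was 6 (mt-Nd6, mt-Nd1, mt-Nd2, mt-Atp6, mt-Nd4l and the tRNA gene mt-Ti, all lower). The count was 0 with the Y-linked covariate and 0 to 8 without single libraries. It was 0 without mutant replicate 1, 2 or 3 and 8 without mutant replicate 4 (mt-Nd1, mt-Nd2, mt-Nd6, mt-Co2, mt-Co3, mt-Atp6, mt-Atp8 and mt-Nd4l, all lower). Over all genes the count, 236 in edgeR, was 361 with DESeq2, 142 without robust estimation, 791 with no filter, 68 with the Y-linked covariate and 96 to 479 without single libraries. With no filter 1 nuclear respiratory gene passed, Cox6a1. With the replicate number as a block, 541 genes and 0 mitochondrial genes passed, and mt-Nd6 had a log2 fold change of -1.07. For pairing, the deviations of log2 CPM from the mean of each library's own group were correlated over all genes tested. Between same-numbered libraries these deviations correlated at only 0.101, 0.089, 0.217 and 0.02, so the numbers were not taken as pairs. Even so, 3 of 4 correlated best with their own number, a hint of pairing from the data.

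Values near 0 changed sign. With the Y-linked covariate mt-Nd4 stood at -0.018 and mt-Cytb at -0.002; without single libraries mt-Nd4 ran from -0.016 to 0.056, mt-Cytb from -0.01 to 0.038, the mitochondrial share from -0.031 to 0.014 and distal over proximal mRNA from -0.003 to 0.03 (log2). Without mt-Co1, complex IV over complex I stood at -0.482 and distal over proximal mRNA at 0.169. The causes were not tested. Without a library the smallest exact p is 0.0571, and with 4 pairs 0.125, so those tests could not pass. The tRNA genes and the low mRNAs rest on few counts, which did not follow library depth.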
